A study of Homo sapiens with 2 samples.

Results

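The mitochondrial chromosome held 92 of the 16964 PAR-CLIP sites listed for replicate 1 and 187 of the 55830 sites listed for replicate 2, or 279 of 72794 sites in all. Every site listed on that chromosome was taken, on both strands and at any score. PAR-CLIP maps protein contacts on RNA by crosslinking a photoreactive uridine to protein and sequencing the RNA fragments recovered with it. Both libraries came from HEK293T, a human embryonic kidney line with the SV40 large T antigen. The cells carried a transfected plasmid for FLAG-tagged SOX2, a transcription factor with an HMG box, and were treated alike. They received 0.2 mM 4-thiouridine for 16 hours, starting 24 hours after transfection, and 0.4 J/cm2 of ultraviolet light at 365 nm. RNase T1, which cuts after guanosine, trimmed the RNA before and after precipitation. Each list is an experiment of its own. The tagged protein was overexpressed, and no library of untagged or uncrosslinked cells was used here. Each site has a score, a whole number of at least 5. The quantity behind this number was not given in the sources used here. Read depth is unknown, and the scores summed to 5365592 over the replicate 1 list and 5192778 over the replicate 2 list. RNA abundance was not measured, so strong crosslinking and an abundant RNA cannot be told apart.

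The human mitochondrial genome is a small circle that is transcribed from both strands into long RNAs. These are cut, mostly at the tRNAs that lie between the other genes, into ribosomal RNAs, mRNAs and tRNAs. The mRNAs encode core subunits of the respiratory chain and of ATP synthase, and the control region between MT-TP and MT-TF holds the promoters. The plus strand of the reference matches 2 rRNAs, 12 of the 13 mRNAs and 14 of the 22 tRNAs. The minus strand matches MT-ND6 and the other 8 tRNAs, and most of its long transcript faces genes of the opposite strand. A site was called sense when it overlapped any gene of its own strand, and was assigned to the one of these it overlapped most. It was called antisense when it overlapped genes of the other strand only, and control region when it overlapped no gene. Gene positions came from the GENCODE annotation of GRCh38 and were moved by 1 nt, because the mitochondrial sequence of hg19 is shifted by up to 2 nt. All 279 sites kept the same gene and the same orientation at shifts of 0, 1 and 2 nt.

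Sequences are shown for 3 tRNAs, because these RNAs are short enough to be seen whole beside the stretch under a site. They are the gene sequences of GENCODE release 29 (GRCh38), 5′ to 3′ with T for U, and not the hg19 sequence that the reads were mapped to. Capitals mark the bases that lie under the site at shifts of 0, 1 and 2 nt alike.
MT-TI: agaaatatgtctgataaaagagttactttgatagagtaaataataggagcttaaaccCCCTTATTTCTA
MT-TL1: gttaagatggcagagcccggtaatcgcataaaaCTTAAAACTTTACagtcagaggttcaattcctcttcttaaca
MT-TP: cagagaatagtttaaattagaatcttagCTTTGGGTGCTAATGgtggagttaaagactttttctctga
MT-TI, the tRNA for isoleucine, carried the only sense tRNA site found in both lists (replicate 2 is shown). MT-TL1, a leucine tRNA, carried the highest-scoring sense tRNA site of replicate 1. MT-TP, the proline tRNA, is shown with its site in replicate 2.

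Most of the mitochondrial signal lay on mRNAs in the sense direction. Sense mRNA sites took 94.4% of the mitochondrial score sum in replicate 1 and 73.3% in replicate 2, which is 83.9% ± 14.9 (SD, n = 2). Ribosomal RNA took 1.74% and 15.5%, and sense tRNA sites took 0.623% and 0.881%. Antisense sites took 2.76% and 6.52%, and the control region took 0.484% and 3.81%. All sense sites together held 96.8% of the score in replicate 1 and 89.7% in replicate 2 (93.2% ± 5.01, SD, n = 2). These shares do not allow for length: the mRNA genes sum to 11395 nt and the rRNA genes to 2513 nt. Per 100 nt, mRNA scored 1949 and rRNA 163 in replicate 1, but 1297 and 1240 in replicate 2, where they were close. Sense sites per kb were 4.56 for mRNA and 3.98 for rRNA in replicate 1, and 7.90 and 9.55 in replicate 2. In site numbers the classes were less uneven, with 23 antisense sites in replicate 1 and 56 in replicate 2 against 52 and 90 sense mRNA sites. Thus antisense sites were many and weak: their median score was 79 in replicate 1 and 87 in replicate 2, while that of sense mRNA sites was 272.5 and 321.

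**Figure D1:**
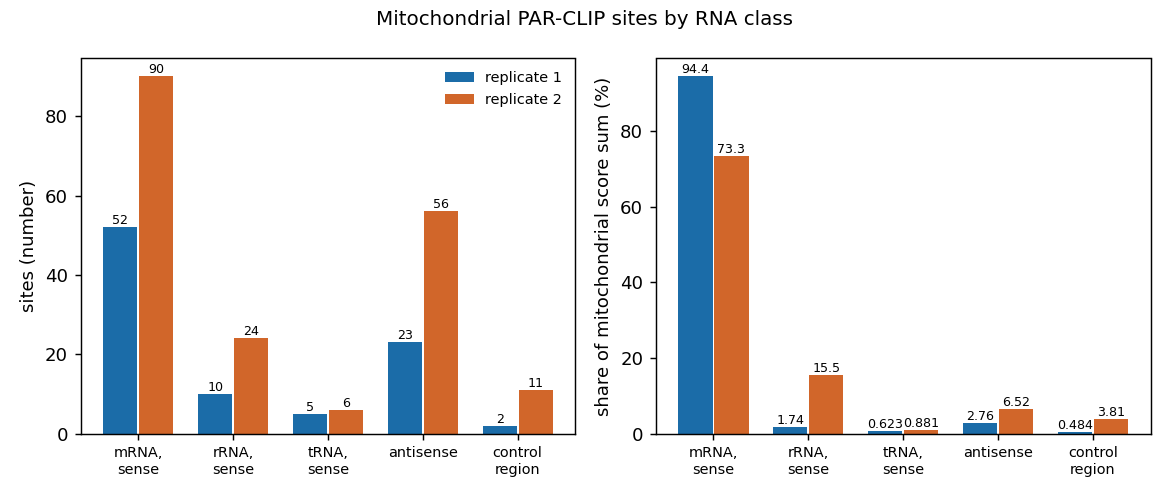
Number of mitochondrial sites (left) and share of the mitochondrial score sum in percent (right) by RNA class, with 1 bar per replicate and no error bars because each bar is 1 library. Sense mRNA took 94.4% and 73.3% of the score, and rRNA took 1.74% in replicate 1 against 15.5% in replicate 2.

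A few sites carried most of this signal. The strongest site took 38.7% of the mitochondrial score in replicate 1 and 22.3% in replicate 2, and the 10 strongest took 87.7% and 58.8%. All 6 replicate 1 sites and both replicate 2 sites that scored 10000 or more were sense sites on the plus strand. Only 3 of the 6 in replicate 1 were shared, meaning that at least 1 nt overlapped a site of the other list on the same strand, while both of replicate 2 were. Over all chromosomes 21.3% of the sites of replicate 1 and 6.5% of those of replicate 2 were shared in this sense. Overlapping sites are called a pair or partners. Sites were short, with median lengths of 17 and 20 nt in the respective lists, and the longest measured 50 and 60 nt.

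The mRNAs of complex IV, cytochrome c oxidase, held 60.7% of the mitochondrial score in replicate 1 and 44.6% in replicate 2. MT-CO1, which encodes the catalytic subunit, had the highest score per gene length in both lists, with 7880 per 100 nt in replicate 1 and 3959 in replicate 2. Its strongest site was also the strongest mitochondrial site of both lists. In replicate 1 it spanned 6226 to 6241 and scored 91073, and in replicate 2 it spanned 6227 to 6242 and scored 44920. This point is 21.3% of the way along the gene from its 5′ end. Directly downstream, the site at 6245 to 6286 scored 22580 in replicate 1, and its partner at 6247 to 6306 scored 4897 in replicate 2. The last listed site of the gene in both lists was shared as well, at 7251 to 7267 with 7291 and at 7249 to 7267 with 5342. Of the 5 sense sites that replicate 1 had on MT-CO1, 4 were shared, against 3 of 14 in replicate 2. Replicate 2 listed 6 sites between 6429 and 6698, where replicate 1 listed none.

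MT-CO2, which encodes the subunit that takes electrons from cytochrome c, came next in both lists with 3096 and 3868 per 100 nt. Nearly all of its score was in 1 site, which held 93.4% of it in replicate 1 and 94.9% in replicate 2. That site spanned 8120 to 8165 and scored 19782 in replicate 1, and lay inside a longer site of replicate 2 that spanned 8107 to 8165 and scored 25121. MT-CO3, the remaining complex IV mRNA, differed from both: it had 1 site with a score of 133 in replicate 1 and 5 sites summing to 2395 in replicate 2. The replicate 1 site, at 9943 to 9958, was shared and scored 541 in replicate 2.

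The 7 mRNAs of complex I, NADH dehydrogenase, together held 25.8% of the score in replicate 1 and 23.8% in replicate 2. This near-equal total (24.8% ± 1.39, SD, n = 2) hid large differences between the genes. MT-ND1 held 10.4% in both lists, with 2559 and 2184 per 100 nt, but its strongest sites were not the same. In replicate 1 the site at 3627 to 3643 scored 20123 and had no partner, the nearest site of replicate 2 on that strand being 39 nt away. In replicate 2 the strongest site of the gene, at 3888 to 3912, scored 9971 and overlapped a replicate 1 site with a score of 571. Its neighbour at 3922 to 3949 scored 6807 against 1634 in replicate 1. Between these, the site starting at 3683 was found in both lists at similar strength, with 1285 and 1852.

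MT-ND4 differed most between the lists among the genes that were strong in replicate 1. It summed to 25612 over 7 sites in replicate 1 and to 2412 over 8 sites in replicate 2, so by score per length it had place 4 of 15 genes in replicate 1 and place 14 in replicate 2. Its sites at 11815 to 11831 and 11852 to 11889 scored 7411 and 15371 in replicate 1, and neither had a partner. The only shared sense site of MT-ND4 was weak, with 35 in replicate 1 and 163 in replicate 2. MT-ND4L, which shares a bicistronic mRNA with MT-ND4, went the other way, with 875 over 3 sites and 7272 over 5 sites. The strongest MT-ND4L site of replicate 2, at 10744 to 10774 with a score of 2395, ran from MT-ND4L into MT-ND4, which overlap there. Its whole score was counted for MT-ND4L, so the replicate 2 sums and places of both genes depend on that assignment. MT-ND5 had 10 and 12 sense sites, of which 6 were shared in each list. Its main site was among the most alike pairs, at 13167 to 13185 with 4785 in replicate 1 and 13167 to 13186 with 5880 in replicate 2. MT-ND2 and MT-ND3 were weak in replicate 1, with score sums of 13 and 289, against 3644 and 889 in replicate 2. MT-ND2 shared no site, and 3415 of its score in replicate 2 came from the site at 5147 to 5161.

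MT-CYB encodes cytochrome b, the only mitochondrially encoded subunit of complex III. It held 7.88% of the mitochondrial score over 8 sites in replicate 1 and 4.29% over 13 sites in replicate 2, with 6 shared in each list. The strongest site in replicate 1, at 15454 to 15468, scored 12078 and had no partner. The next, at 15576 to 15590, scored 5769 and overlapped the strongest of replicate 2, at 15566 to 15593 with 1883. Summed by complex, the ATP synthase mRNAs held the least score, 0.0395% and 0.622% of the mitochondrial sum. MT-ATP6 had 1 site with a score of 93 in replicate 1 and 7 sites summing to 1254 in replicate 2, and no sense site of either list fell mainly on MT-ATP8.

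**Figure D2:**
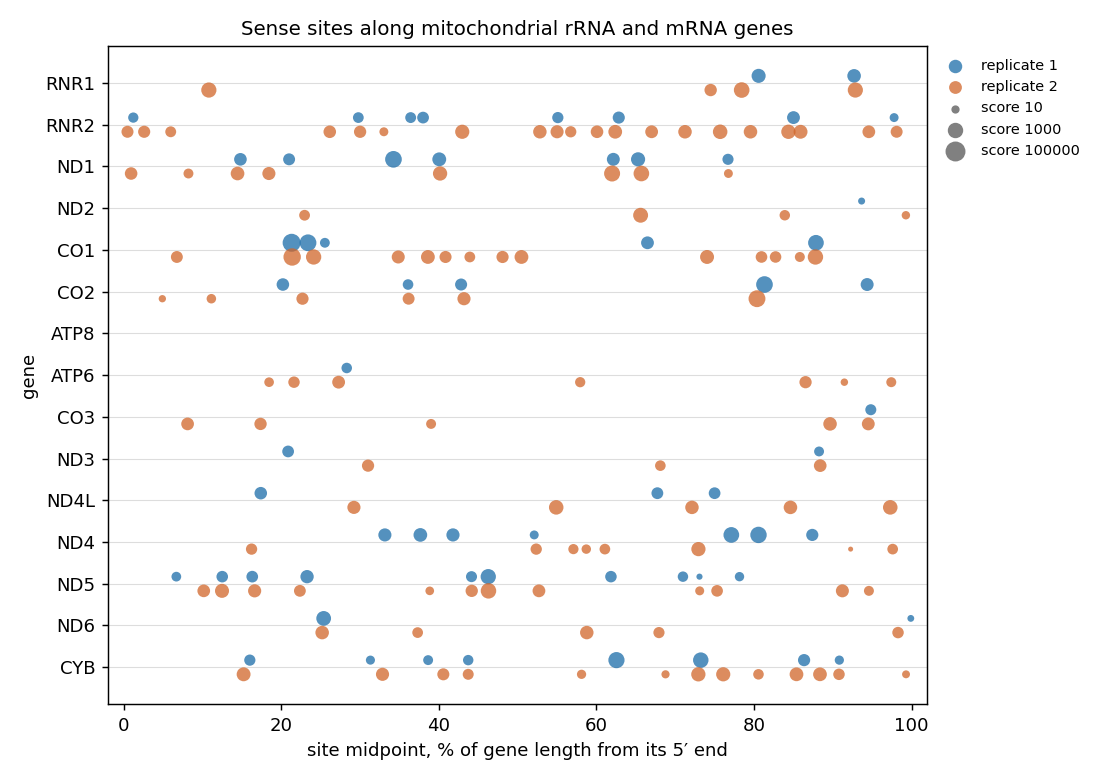
Sense sites on the 15 rRNA and mRNA genes, placed by site midpoint in percent of gene length from the 5′ end of the gene, with point area growing with the logarithm of the score and colour giving the replicate. The strongest points lie at 21.3% of MT-CO1 in both replicates, and MT-ATP8 has no sense site.

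**Figure D3:**
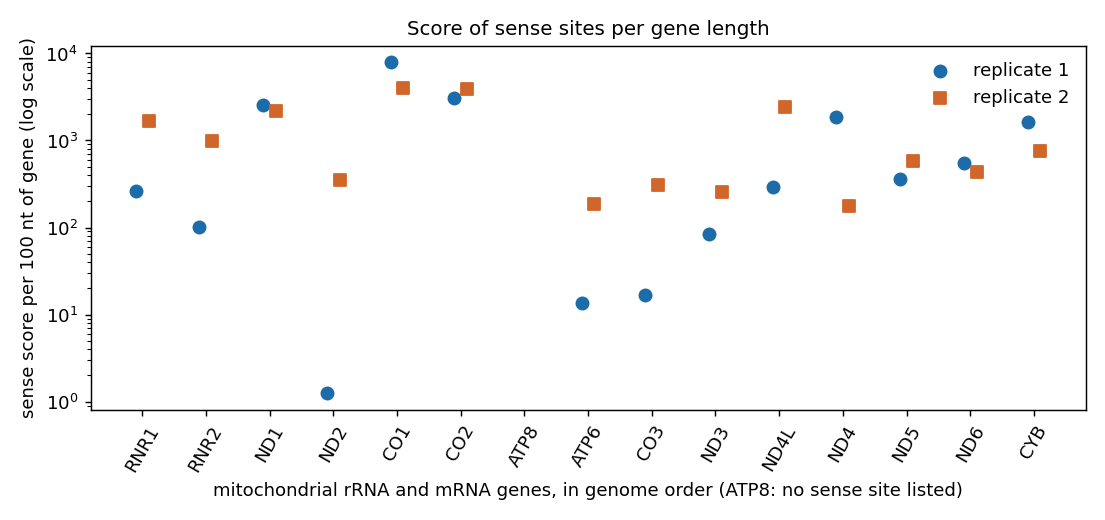
Sum of sense scores per 100 nt of gene (log axis) for the rRNA and mRNA genes in genome order, with 1 point per replicate. MT-CO1 and MT-CO2 are the 2 highest in both replicates, and MT-ND4 lies lower in replicate 2 while both rRNAs lie higher there.

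Across the 15 rRNA and mRNA genes, 14 had sense sites in both lists and 13 had at least 1 shared site. The order of genes by score per length was related between the lists, with a Spearman's rho of 0.66 over 15 genes. The genes share the libraries and lie on common precursor RNAs, so this is a description. Sites were spread along the mRNAs. With each gene split into 3 equal parts from its 5′ end, replicate 1 had 17, 16 and 19 sense sites in the parts and replicate 2 had 26, 28 and 36. By score the 5′ part held the most, 54.3% of the mRNA score in replicate 1 and 41.5% in replicate 2, but this rested on MT-CO1. Without MT-CO1 the middle part held 42.9% and 39.3% and the 3′ part 50.3% and 47.6%, and the 5′ part held the least in both lists. This lead of the 3′ part rested in turn on 1 MT-CO2 site. The site held 19782 of the 50562 in that part in replicate 1, and 25121 of 41321 in replicate 2. Without it the middle part, which summed to 43178 and 34091, would hold the most in both lists.

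Ribosomal RNA was the class whose share of the score differed by the largest ratio between the lists, at 1.74% and 15.5%. The 12S rRNA gene MT-RNR1 had 2 sites summing to 2537 in replicate 1 and 4 sites summing to 15864 in replicate 2, or 266 and 1663 per 100 nt. The 16S rRNA gene MT-RNR2 had 8 sites summing to 1562 and 20 sites summing to 15286, or 100.2 and 980.5 per 100 nt. Of the rRNA sites, 8 of 10 were shared in replicate 1 and 10 of 24 in replicate 2 (80.0% and 41.7%), beside 57.6% and 28.3% of all mitochondrial sites. Both 12S sites of replicate 1 lay near the 3′ end of the RNA and were shared. The pair at 1405 to 1429 and 1382 to 1411 scored 1543 and 6658, and the pair at 1524 to 1541 and 1526 to 1542 scored 994 and 4344. The 12S site of replicate 2 near the 5′ end, at 729 to 775 with a score of 4496, had no partner. On 16S rRNA the strongest shared position was a replicate 1 site at 2977 to 3016 with a score of 537. It overlapped 2 sites of replicate 2, at 2977 to 2996 and 3000 to 3021, with scores of 1985 and 1318. No antisense site was listed on either rRNA gene in either replicate.

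Transfer RNAs carried few sense sites. Replicate 1 listed 5 on 4 of the 22 tRNA genes and replicate 2 listed 6 on 6 genes, and 11 tRNA genes had no site assigned to them, by largest overlap, on either strand in either list. Among these 11 is MT-TW, which a replicate 2 site assigned to MT-ND2, at 5493 to 5516 with a score of 26, reached into. MT-TR is also among them. On its side, a replicate 2 site antisense to MT-ND3, at 10389 to 10408 with a score of 454, ran past the end of MT-ND3. The shared MT-TI site shown above scored 367 in replicate 1, at 4321 to 4335, and 1232 in replicate 2, at 4320 to 4335. It covered the last bases of the tRNA gene and, over the 3 shifts, ran 2 to 4 nt past its annotated 3′ end. The MT-TL1 site scored 845, the MT-TV site 118 and the MT-TH site 54 in replicate 1, and none of these had a partner in replicate 2. In replicate 2, MT-TP scored 441, while MT-TT, MT-TG, MT-TD and MT-TC scored 52, 34, 11 and 5. The strongest site at a tRNA gene was antisense: replicate 1 listed 2938 at 15992 to 16009, on the plus strand, opposite to MT-TP, and replicate 2 listed no plus-strand site there. The MT-TP site of replicate 2, at 15981 to 15997 on the minus strand, overlaps these positions in part. At MT-TE, which codes for the glutamate tRNA, an antisense site was shared, with 130 and 70.

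The minus strand held 3.03% of the mitochondrial score in replicate 1 and 11.4% in replicate 2, over 24 and 67 sites. Its only mRNA, MT-ND6, a complex I subunit, had 2 sense sites in replicate 1 and 5 in replicate 2, with summed scores of 2858 and 2300. The main one spanned 14530 to 14552 and scored 2846 in replicate 1, and spanned 14534 to 14550 and scored 949 in replicate 2. This was the strongest minus-strand site of replicate 1 and the fifth of replicate 2. Per gene length MT-ND6 was close in the lists, at 544 and 438 per 100 nt. The stretch from MT-ND4 to MT-CYB, which includes MT-ND6, held 12 of the 24 minus-strand sites in replicate 1 and 39 of the 67 in replicate 2. These counts include the sense sites on MT-ND6 and do not allow for the length of the stretch.

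In replicate 2 antisense sites were most numerous opposite MT-ND5 and MT-ND4, while in replicate 1 no gene had more than 4. MT-ND5 had 3 antisense sites in replicate 1 and 15 in replicate 2, with summed scores of 1730 and 7109, and MT-ND4 had 4 and 12, with 624 and 2135. In replicate 2 both genes had more antisense than sense sites, which numbered 12 on MT-ND5 and 8 on MT-ND4. MT-CYB followed with 3 and 7 antisense sites, and MT-ND1 with 3 and 5. These counts do not allow for length, and MT-ND5 and MT-ND4 are long genes, with 1812 and 1378 nt. Per kb, replicate 2 had 8.28 antisense sites on MT-ND5 and 8.71 on MT-ND4. The short MT-ND3 was alike there with 8.67, from 3 antisense sites that summed to 979, beside 3 sense sites with 889. The strongest shared antisense pair lay opposite MT-ND5, at 12768 to 12784 with 733 in replicate 1 and 12766 to 12785 with 1463 in replicate 2. The strongest antisense site of replicate 2, at 12911 to 12925 with 4096, had no partner, nor had the replicate 1 site at 12512 to 12527 with 877 or that at 11922 to 11935 with 270. Opposite MT-ND6, on the plus strand, replicate 2 listed 2 weak sites with 152 and 78, and replicate 1 listed none. In replicate 1, 6 of 24 minus-strand sites overlapped a plus-strand site of the same list, and in replicate 2 it was 18 of 67.

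**Figure D4:**
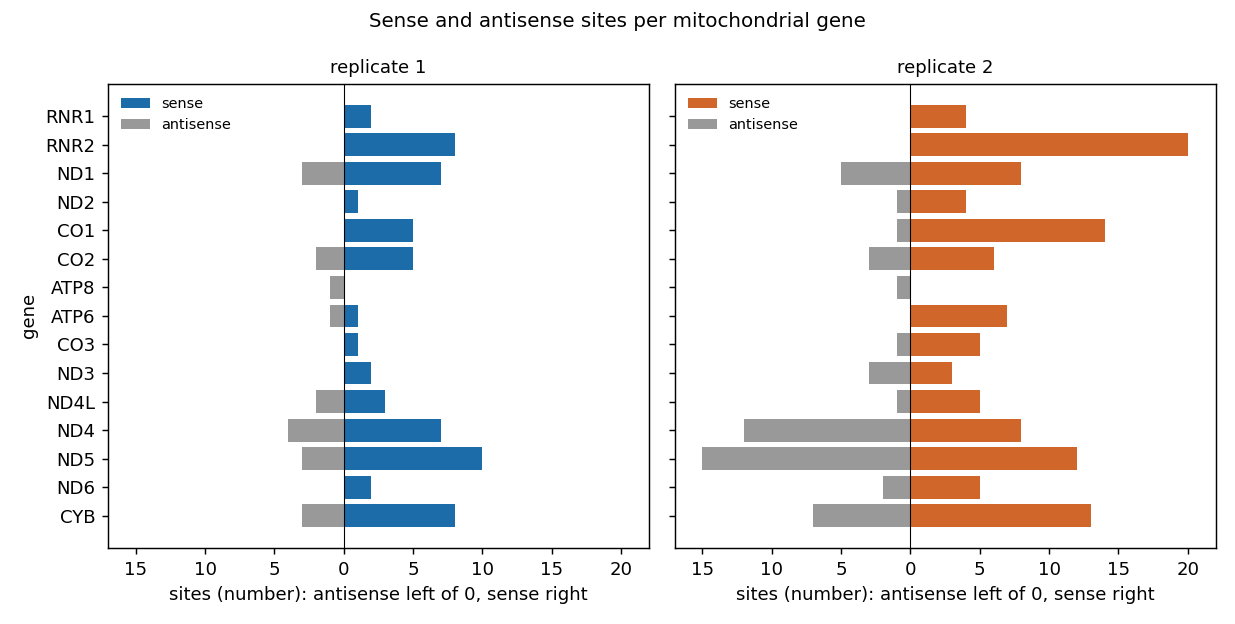
Number of sense sites (right of 0) and antisense sites (left of 0, grey) on each rRNA and mRNA gene, 1 panel per replicate. Antisense sites are most numerous at MT-ND5 and MT-ND4 in replicate 2, with 15 and 12, and absent from both rRNA genes in both replicates. The numbers do not allow for gene length.

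The control region carried signal mainly on the minus strand, the strand transcribed from the light-strand promoter located there. Replicate 1 listed 2 sites in it, both on the minus strand, and replicate 2 listed 8 on the minus strand and 3 on the plus strand. The minus-strand score sums were 1139 in replicate 1 and 7617 in replicate 2, and the plus-strand sum of replicate 2 was 66. The strongest were at 239 to 264 with 3481 and at 387 to 409 with 3000, both in replicate 2. In replicate 1 the strongest lay at 281 to 296 with 1079, which is 16 nt from the nearest site of replicate 2 and overlaps none. The control-region site at 16394 to 16412 was shared, with 60 in replicate 1 and 166 in replicate 2.

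In all, 53 of 92 mitochondrial sites were shared in replicate 1 (57.6%, 95% Wilson interval 47.4 to 67.2) and 53 of 187 in replicate 2 (28.3%, 22.4 to 35.2). Against the 21.3% and 6.5% over all chromosomes, the shares over the nuclear chromosomes alone were 21.1% and 6.42%. Sites covered 8.69% and 19.1% of the mitochondrial mRNA positions in the sense direction in the respective lists, and the part of this density in the sharing was not tested. Of sense sites, 62.7% were shared in replicate 1 and 35.0% in replicate 2, against 44.0% and 16.4% of the antisense and control-region sites. By Fisher's exact test, two-sided, the difference passed the threshold of 0.05 in replicate 2 (p = 0.00697, adjusted p = 0.0209 over 3 tests, odds ratio 2.74) and not in replicate 1 (adjusted p = 0.154, odds ratio 2.14). In replicate 2 the exact test did not pass among sites with scores of at least 100 (adjusted p = 0.163, odds ratio 2.54) or with strand ignored (adjusted p = 0.799, odds ratio 1.23). Below a score of 100, 2 of 27 sense sites and 4 of 34 other sites of replicate 2 were shared (7.41% and 11.8%), which goes the other way and was not tested. Several sites can come from 1 RNA, which makes the p-values too small, and the tests compare sites within these libraries. Both tests of sharing rest on the same overlaps, with 42 sense and 11 other shared sites in each list, so they are not separate results. Sense sites also had more sites of their kind to meet: 67 against 25 in replicate 1 and 120 against 67 in replicate 2. The part of these numbers in the difference was not tested. The plus strand held 73.9% of sites in replicate 1 and 64.2% in replicate 2, a difference that did not pass (Fisher's exact test, two-sided, adjusted p = 0.154, odds ratio 1.58). Of the unshared sites, 24 of 39 in replicate 1 and 47 of 134 in replicate 2 were within 50 nt of a same-strand site of the other list. The median gaps were 36 and 88.5 nt. The nearness that the density of sites alone would give was not worked out, so these counts are a description.

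Where sites were shared, mitochondrial scores were mostly higher in replicate 2, although the mitochondrial score sum was lower there (201516 against 235291). Among the 55 overlapping pairs, 44 scored higher in replicate 2 and 11 in replicate 1, and the median log2 ratio of replicate 2 to replicate 1 was 1.47 (SD 1.66). A site that overlapped 2 sites of the other list entered 2 pairs, so the pairs are not all distinct sites. All 10 rRNA pairs scored higher in replicate 2, by log2 ratios between 1.30 and 2.93 with an SD of 0.42, a narrow range. They rest on 8 replicate 1 sites, because those at 1675 to 1707 and 2977 to 3016 each entered 2 pairs. The 33 mRNA pairs were wider, from -2.21 to 6.35, with 25 higher in replicate 2. The 10 antisense pairs lay near equality, with a median of 0.21 and a range from -0.89 to 1.28. The largest ratio arose where a replicate 1 site on MT-CO1 with a score of 60 fell inside a 60 nt site of replicate 2 with 4897. The same replicate 2 site, at 6247 to 6306, is also the partner of the replicate 1 site at 6245 to 6286, which scored 22580. The upper end of the mRNA range thus comes from a site that was used in 2 pairs. At the strong end the direction was mixed: the first pair of MT-CO1 fell by 1.02 on the log2 scale from replicate 1 to replicate 2, the second fell by 2.21, and the MT-CO2 pair rose by 0.34.

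Nuclear shared sites went the other way. With each replicate 1 site set against its longest-overlapping partner, the median log2 ratio was 1.47 for 53 mitochondrial sites, with quartiles of 0.25 and 2.06. It was -0.22 for 3568 nuclear sites, with quartiles of -1.03 and 0.69. Replicate 2 scored higher at 79.2% of mitochondrial sites and 42.2% of nuclear sites. Of the 25 chromosomes, the mitochondrial one had the highest median, and chromosome 21 came next with 0.07. Among sites with a geometric mean score from 100 to below 1000, the medians were 1.75 for 27 mitochondrial and -0.33 for 968 nuclear sites, and from 1000 upwards they were 0.44 for 14 and -0.40 for 136. These classes were chosen after the values were seen, and the ratios run across sites within 2 libraries, so the difference was not tested.

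**Figure D5:**
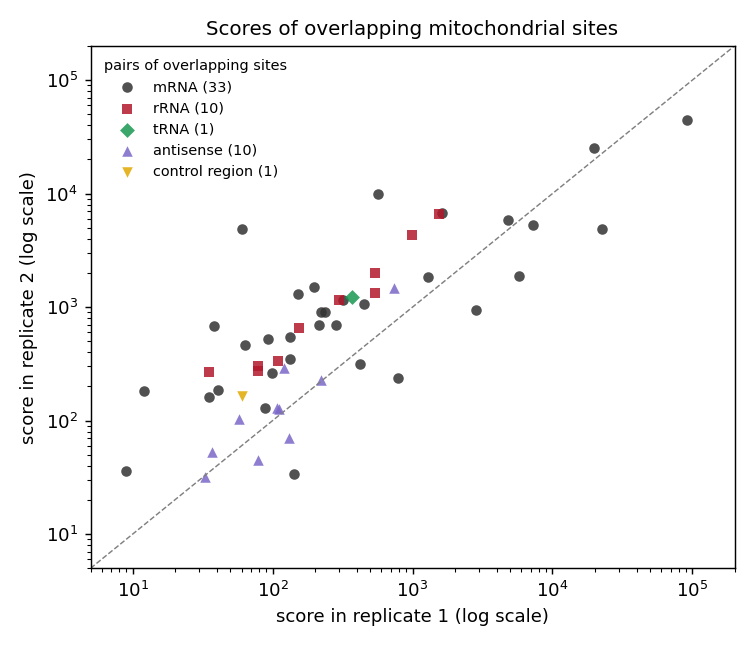
Scores of the 55 overlapping pairs of mitochondrial sites in replicate 1 (x axis) and replicate 2 (y axis), both on log axes, with symbols by RNA class and the line of equal scores dashed. All 10 rRNA pairs lie above the line, while the antisense pairs scatter around it. A site that overlapped 2 sites of the other list gives 2 points.

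The nuclear genome holds copies of mitochondrial DNA, so short reads can match both. In the GRCh38 annotation, 7 pseudogenes lie next to each other near the start of chromosome 1: MTND1P23, MTND2P28, MTCO1P12, MTCO2P12, MTATP8P1, MTATP6P1 and MTCO3P12. Their annotated sequences were between 97.6% and 99.1% identical to the mitochondrial genes over the aligned part. In the lists (hg19), a stretch of chromosome 1 from 565364 to 569949, chosen after its values were seen, held 5 sites in replicate 1 and 4 in replicate 2, all on the plus strand. Their scores summed to 14225 and 2973. The site at 566774 to 566792 was listed in both, with 7345 and 2833, and a site at 565407 to 565428 scored 6572 in replicate 1 only. The mitochondrial positions that these sites match were not worked out, so a match to the strongest MT-CO1 site was not tested. The treatment of reads with several matches was not given in the sources used here, so which copy such reads came from was not tested. Scores of MT-ND2, MT-CO1, MT-CO2, MT-ATP6, MT-ATP8 and MT-CO3, and of part of MT-ND1, are uncertain to that extent. Nuclear copies elsewhere, including any of the other mitochondrial genes, were not looked at, so those genes cannot be taken as free of this uncertainty.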

How the data were processed

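PAR-CLIP sites of SOX2 in HEK293T cells were deposited by the authors as 1 list per library (1 group of 2 libraries, which the labels call independent experiments). Each list has 6 columns, and the deposited score is a whole number per site. Per the submitters' processing notes, bcl2fastq, Bowtie 1.1.2 and hg19 were used. The site caller and thresholds were not given in the sources used here. Depth is unknown, so intervals cover counting error over sites only.

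Rows on the mitochondrial chromosome were taken, with positions counted from 1. Genes came from GENCODE 29 (GRCh38), moved by 1 nt. hg19 sequence was not used here. Overlap, Wilson intervals (95%) and Fisher's exact tests with Benjamini-Hochberg adjustment over 3 tests were computed in Python 3.11.15 with numpy 2.4.6, scipy 1.17.1 and statsmodels 0.14.6, and pseudogenes were aligned with Biopython 1.88. The overlap and gene code was tested on simulated data. Named were all genes with a site in both lists, the 10 pairs with the best mean score rank, and the 5 strongest sites of each list, overall and on the minus strand. Members and lists were chosen with earlier results of these data known. Alternatives were shifts of 0 and 2 nt, sites inside 1 gene, overlap of 50%, gaps of up to 10 nt, strand ignored, scores of at least 100, equal numbers of sites, the strongest site left out, and each replicate left out.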

Additional observations from a re-analysis of the deposited data

How the results depend on the processing

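Of 71 alternative settings, 56 kept the reported value within its spread and its side of the threshold, and shifts of 0 and 2 nt changed none. This count overstates the stability, because some settings could not come out otherwise. No site changed its gene at either shift, and with 2 libraries each single-library share lies within the SD of their mean. The sense share and the antisense and control-region share sum to the whole, so they move together. The plus-strand share of sites (69.0%) became 77.0% at scores of at least 100 and 76.6% with replicate 2 limited to its 92 strongest sites, which also turned the odds ratio between the lists to 0.737. The tRNA share of score (0.752%) became 1.08% without the strongest site of each list and 0.379% for sites lying whole inside 1 gene. The shared part of replicate 1 and replicate 2 was 41.3% and 20.3% with 50% of both sites in common, 70.7% and 37.4% with strand ignored, and 42.4% of both with equal numbers of sites. With strand ignored, the odds ratio for sharing of sense sites was 0.914 in replicate 1 and 1.23 in replicate 2, and at scores of at least 100 it was 2.54 in replicate 2. For these changes the cause was not tested. With either replicate left out there is no overlap, and the shares of score were the single-library values: 73.3% to 94.4% for mRNA, 1.74% to 15.5% for rRNA, 0.623% to 0.881% for tRNA, 89.7% to 96.8% for sense sites and 3.24% to 10.3% for the rest. Splitting mRNA scores without MT-CO1 was chosen after seeing the data. No paired analysis was possible because all libraries belong to 1 group. Without a known depth, its part in the number of weak sites was not tested.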
